A study of Mus musculus with 6 samples.

Results

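The genes described here control the passage of a cell through G1, the phase in which it commits to another round of division. They are the D-type cyclins Ccnd1, Ccnd2 and Ccnd3, the E-type cyclin Ccne1, the cyclin-dependent kinases Cdk4 and Cdk6, the CIP/KIP inhibitors Cdkn1a and Cdkn1b, and the INK4 inhibitors Cdkn2a and Cdkn2c. They were picked by gene symbol as a named pathway. All 10 symbols were among the 23337 gene rows of the count files, and all 10 passed the filter on low counts that left 13925 genes for testing.

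Nuclear RNA was sequenced from 6 lines of mouse neural precursor cells, 3 labelled Fmr1 KO (lines 3, 13 and 16) and 3 labelled Fmr1 WT (lines 3, 8 and 19). Fmr1 encodes FMRP, an RNA-binding protein, and the design text calls the lines of a genotype independent. Cells of both genotypes were taken at E13.5 from the dorsal hem of the forebrain, were grown on Matrigel with EGF and basic FGF at 20 ng/ml each, were at passage 6 to 7, and were harvested near 80% confluency. The sources used here name neither the Fmr1 allele nor the mouse strain, and the p-values measure the spread between lines.

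In G1, mitogens such as EGF and FGF raise the D-type cyclins, which bind CDK4 or CDK6 and start to phosphorylate the RB protein. Phosphorylated RB releases the E2F factors, which switch on Ccne1 and the genes of DNA replication, and cyclin E with CDK2 completes the step. INK4 proteins block CDK4 and CDK6, while CIP/KIP proteins block CDK2 and also bind the cyclin D complexes. In the embryonic forebrain the length of G1 is tied to whether a precursor divides again or differentiates.

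Total counts ran from 19520481 to 23324162 in the libraries labelled KO and from 18702738 to 26789522 in WT. Fmr1 was at 371.4, 188.2 and 153.4 CPM in KO lines 3, 13 and 16, against 223.2, 269.8 and 273.6 CPM in WT lines 3, 8 and 19 (CPM are counts scaled to library size by TMM factors). The library labelled KO line 3 thus held more Fmr1 RNA than every WT library. KO lines 13 and 16 held less than WT but kept Fmr1 RNA. With all libraries Fmr1 was not called (log2 fold change -0.105, edgeR adjusted p = 0.795). Without KO line 3 it was lower (-0.58, edgeR adjusted p = 0.00152). As the allele is not named, these RNA levels cannot settle the genotype of a library. Directions below therefore rest on the labels as given, and fold changes of the G1 genes are also given without KO line 3. Xist, which silences an X chromosome, was high in KO line 3 (20510 CPM) and in WT lines 3 and 8 (15470 and 18430 CPM), but stood at 3.34 and 1.67 CPM in KO lines 13 and 16 and 81.8 CPM in WT line 19. Each Xist state thus holds lines of both labels. The ribosomal precursor row Rn45s stood at 18740 CPM in WT line 19, against 1078 to 2568 CPM in the other 5 libraries. By chi-square per degree of freedom, WT line 19 differed from the other WT lines by 61.3 and 62.8 and KO line 3 from the other KO lines by 72.6 and 91.5, while the remaining pairs within a group were at 16.4 (KO) and 10.8 (WT). Markers of neural precursors were detected in 10 of 10 genes, with a sum of 4799 to 6104 CPM in the libraries labelled KO, against 6466 to 7108 CPM in WT. That sum is mostly Nes, Vim and Fabp7. Only Vim was called (lower), 5 of the 10 genes had a log2 fold change above 0, and the median was -0.03. Markers of astrocytes (7 genes) summed to 231.6 to 316.2 CPM in the libraries labelled KO, against 365.6 to 637.6 CPM in WT. Those of the oligodendrocyte lineage (8 genes) summed to 414 to 602.9 CPM in the libraries labelled KO, against 351 to 404.2 CPM in WT. Those of neurons (8 genes) summed to 30.8 to 44.5 CPM in the libraries labelled KO, with Neurod6 at 0, against 111.6 to 174.1 CPM in WT. Most of the WT sum was Gad2, and without it the other 7 neuronal genes summed to 24.5 to 39.5 CPM in the libraries labelled KO, against 17.1 to 24.4 CPM in WT, with Snap25 called higher and Gad1 lower. Microglial (7 genes, Tmem119 at 0 throughout), endothelial (6 genes), fibroblast or meningeal (7 genes) and erythroid markers (4 genes, Hba-a1 and Hba-a2 at 0 throughout) stayed below 35 CPM in sum in every library. The part of these marker differences in the results below was not tested. In bulk RNA, fewer cells of a type and less RNA per cell cannot be told apart.

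The libraries labelled KO held less Ccnd1 and more Ccnd3, Ccne1, Cdk4, Cdk6 and Cdkn2a RNA than WT, while Ccnd2, Cdkn1a, Cdkn1b and Cdkn2c did not pass the test. The test, edgeR's quasi-likelihood test with Benjamini-Hochberg adjustment over all tested genes, thus called 6 of the 10 genes, 5 higher and 1 lower. Over all 13925 tested genes it called 42.3%, 21.8% higher and 20.4% lower, so a call on its own does not set a G1 gene apart. In 8 of the 10 genes the 2 groups of libraries were fully apart, as they were in 54.3% of all tested genes. The median log2 fold change (KO over WT) was 0.15 over the 10 genes and 0.01 over all tested genes. Without KO line 3 the test called 7 of the 10 genes (5 higher, 2 lower) and 53.7% of all tested genes. The count was 4 when any other single library was left out. Calls over all tested genes then fell too, from 5884 with all libraries to between 4262 and 5207. Without WT line 3 the called share of all tested genes was 30.4%.

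**Figure D1:**
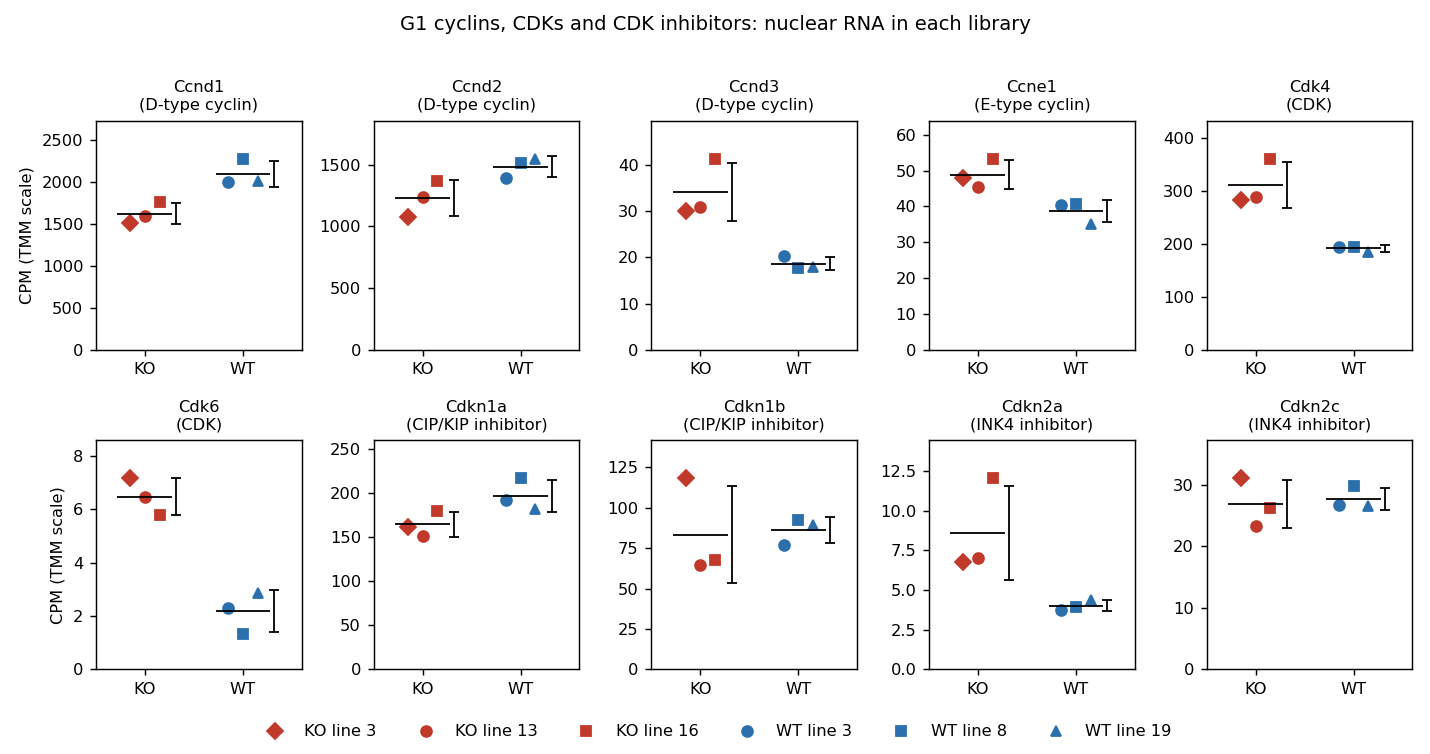
CPM on the TMM scale (vertical axes, from 0) of the 10 G1 genes in each of the 3 libraries labelled KO and the 3 WT libraries; horizontal lines are group means and bars are SD. The 2 groups overlap only for Cdkn1b and Cdkn2c, and the library labelled KO line 3 lies highest for Cdkn1b at 118.3 CPM.

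Among the D-type cyclins, Ccnd1, which encodes cyclin D1 (ENSMUSG00000070348.5, chromosome 7, 144929931 to 144939925 in GRCm38), was at 1512, 1591 and 1760 CPM in KO lines 3, 13 and 16, against 2003, 2277 and 2007 CPM in WT lines 3, 8 and 19. Every library labelled KO lay below every WT library. Ccnd1 fell to 0.774 of the WT level (log2 fold change -0.37, SE 0.13, edgeR adjusted p = 0.0447). The change was -0.32 without KO line 3 (edgeR adjusted p = 0.049), and the call was lost when any other single library was left out (edgeR adjusted p from 0.0503 to 0.154). Exons of Ccnd1 overlap those of the neighbouring row Oraov1 on the other strand, which did not pass (log2 fold change -0.11).

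Ccnd2, which encodes cyclin D2, the D-type cyclin needed for adult neurogenesis in mice (ENSMUSG00000000184.12, chromosome 6, 127125162 to 127152193), was at 1076, 1238 and 1370 CPM in KO lines 3, 13 and 16, against 1391, 1513 and 1548 CPM in WT lines 3, 8 and 19. The highest library labelled KO and the lowest WT library were close, though the groups did not overlap. Its log2 fold change, -0.27 with an SE of 0.13, did not pass (edgeR adjusted p = 0.121), and it was -0.18 without KO line 3. With Xist state as a covariate it passed at -0.34 (edgeR adjusted p = 0.0294). Exons of Ccnd2 overlap those of an antisense RNA with a row of its own.

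Ccnd3, which encodes cyclin D3, a cyclin best known from dividing lymphocytes (ENSMUSG00000034165.16, chromosome 17, 47505051 to 47599691), moved the other way. It was at 30.1, 31 and 41.4 CPM in KO lines 3, 13 and 16, against 20.2, 17.7 and 17.9 CPM in WT lines 3, 8 and 19, with no overlap and KO line 16 highest. Ccnd3 rose 1.83-fold (log2 fold change 0.88, SE 0.15, edgeR adjusted p = 0.00178), and its log2 fold change without KO line 3 was 0.96 (edgeR adjusted p = 7.51e-05). A stretch of Ccnd3 exon is shared with Bysl on the opposite strand, which also rose (log2 fold change 0.45, edgeR adjusted p = 0.0294), and the part of these shared bases was not tested.

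Per kilobase of exon, Ccnd1 made up 72 ± 1.03% of the summed D-type cyclin level in the libraries labelled KO and 73.5 ± 1.49% in WT, and Ccnd2 27.2 ± 1.01% in the libraries labelled KO and 26.1 ± 1.49% in WT (SD, n = 3 each). Ccnd3 made up 0.81 ± 0.08% in the libraries labelled KO and 0.353 ± 0.044% in WT (SD, n = 3 each). With the longest transcript as length its share was 1.385% in the libraries labelled KO and 0.6064% in WT. Ccnd1 and Ccnd2 thus held nearly all of the nuclear D-type cyclin RNA per kilobase of exon in both groups of libraries. The shares of Ccnd3 did not overlap (0.747 to 0.899% in the libraries labelled KO, against 0.313 to 0.4% in WT). The ratio of Ccnd1 to Ccnd2 per kilobase was 2.65 ± 0.139 in the libraries labelled KO and 2.82 ± 0.214 in WT (SD, n = 3 each), and its values overlapped between the groups.

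Ccne1 encodes cyclin E1, the activator of CDK2 at the entry to S phase (ENSMUSG00000002068.16, chromosome 7, 38097984 to 38107534). Its RNA was at 47.9, 45.5 and 53.3 CPM in KO lines 3, 13 and 16, against 40.3, 40.8 and 35 CPM in WT lines 3, 8 and 19. The groups did not overlap, and the nearest libraries, KO line 13 and WT line 8, were less than 5 CPM apart. Ccne1 rose 1.26-fold (log2 fold change 0.34, SE 0.11, edgeR adjusted p = 0.0403), and its log2 fold change without KO line 3 was 0.35 (edgeR adjusted p = 0.0177). The call was lost when any other single library was left out (edgeR adjusted p from 0.0589 to 0.145). The second E-type cyclin, Ccne2, averaged 21 ± 3.51 CPM in the libraries labelled KO, against 22.8 ± 3.22 CPM in WT (SD, n = 3 each), a log2 fold change of -0.12 that did not pass (edgeR adjusted p = 0.572).

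Both kinases of the D-type cyclins rose. Cdk4, the main partner in most dividing cells (ENSMUSG00000006728.12, chromosome 10, 127063534 to 127067920), was at 282.9, 287.4 and 360 CPM in KO lines 3, 13 and 16, against 194, 194.5 and 183.8 CPM in WT lines 3, 8 and 19. The WT libraries lay close together, and every library labelled KO was well above them. The log2 fold change was 0.70 (SE 0.12, edgeR adjusted p = 0.0019), a 1.63-fold difference, and 0.77 without KO line 3 (edgeR adjusted p = 6.34e-05). Exons of Cdk4 overlap those of Tspan31 on the other strand, which had a log2 fold change of -0.24 and did not pass (edgeR adjusted p = 0.0948).

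Cdk6, a kinase close to Cdk4 (ENSMUSG00000040274.11, chromosome 5, 3341485 to 3531008), was scarce in every library. It held 134, 153 and 135 counts in KO lines 3, 13 and 16, against 63, 26 and 53 counts in WT lines 3, 8 and 19, which is 7.16, 6.47 and 5.79 CPM in the KO lines, against 2.3, 1.32 and 2.87 CPM in the WT lines. The lowest library labelled KO thus held about 2 times the level of the highest WT library. Cdk6 rose 2.98-fold, the largest change among the 10 genes (log2 fold change 1.58, SE 0.26, edgeR adjusted p = 0.00161). Its log2 fold change without KO line 3 was 1.504 (edgeR adjusted p = 0.000398). By the absolute size of its log2 fold change it ranked 891 of the 13925 tested genes.

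Promoter sequences of RefSeq (GRCm38.p6) were searched, on both strands and in the 250 bases before each start, for CACGTG (the E-box bound by MYC-MAX dimers), for the E2F words TTTGGCGC, TTTCGCGC, TTTCCCGC and TTTGCCGC, for the GC box GGGCGG and for the cAMP response element TGACGTCA. The table held 12 promoters of 8 of the 10 genes, all but Ccnd1 and Ccnd2. An E-box stood in 2 of the 12, those of Cdk4 and Cdk6, and in 6.02% of all 32851 promoters in the table. The Cdk4 promoter held 4 of them, reaching from 172 to 6 bases before the start, and only 7 promoters of the whole table (0.0213%) held at least 4. An E2F word stood in 1 of the 12, the upstream promoter of Cdkn2a, and in 1.86% of all promoters. GC boxes were in 8 of the 12 and in 32.7% of all promoters, and the cAMP element was in 0 of the 12 and in 1.55% of all promoters. Ccnd3 and Ccne1, which also rose, had neither an E-box nor an E2F word in this window. None of the words overlapped another in the 3 sequences below, those of Cdk4, Cdk6 and Cdkn2a. Capitals mark the E-boxes in Cdk4 (chr10:127063285-127063534, plus strand) and Cdk6 (chr5:3343643-3343892, plus strand) and the E2F word in Cdkn2a (chr4:89294620-89294869, minus strand). Each sequence is written 5′ to 3′ along the gene.
Cdk4: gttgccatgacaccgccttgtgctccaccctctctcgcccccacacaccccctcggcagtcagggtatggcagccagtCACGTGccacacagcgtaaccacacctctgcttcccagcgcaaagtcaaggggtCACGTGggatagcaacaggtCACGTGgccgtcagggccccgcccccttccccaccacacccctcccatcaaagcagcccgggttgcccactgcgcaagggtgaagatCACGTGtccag
Cdk6: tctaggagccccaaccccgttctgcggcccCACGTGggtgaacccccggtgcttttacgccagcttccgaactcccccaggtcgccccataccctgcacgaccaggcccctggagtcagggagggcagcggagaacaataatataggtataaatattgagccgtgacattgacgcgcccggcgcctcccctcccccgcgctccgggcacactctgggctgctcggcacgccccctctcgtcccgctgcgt
Cdkn2a: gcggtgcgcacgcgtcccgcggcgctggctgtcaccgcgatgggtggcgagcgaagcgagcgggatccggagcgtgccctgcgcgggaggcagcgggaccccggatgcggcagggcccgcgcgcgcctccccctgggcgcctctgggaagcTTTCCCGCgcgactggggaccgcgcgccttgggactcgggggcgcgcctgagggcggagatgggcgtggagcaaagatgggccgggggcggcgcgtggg

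Myc RNA, the source of the E-box-binding factor, was at 137.3, 161.5 and 167.6 CPM in KO lines 3, 13 and 16, against 80.7, 68 and 82.3 CPM in WT lines 3, 8 and 19 (log2 fold change 1.01, SE 0.12, edgeR adjusted p = 0.000335). The related Mycn averaged 5.58 ± 1.09 CPM in the libraries labelled KO, against 5.00 ± 1.76 CPM in WT (SD, n = 3 each) and did not pass (edgeR adjusted p = 0.673). A sequence match and an RNA level do not show that a promoter is bound.

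Of the CIP/KIP inhibitors, Cdkn1a, the p53 target that encodes the p21 protein (ENSMUSG00000023067.14, chromosome 17, 29090976 to 29100727), was at 162, 151.8 and 180.5 CPM in KO lines 3, 13 and 16, against 192, 217.2 and 182.6 CPM in WT lines 3, 8 and 19. The groups did not overlap, but KO line 16 and WT line 19 lay almost together. Its log2 fold change, -0.26 with an SE of 0.11, did not pass (edgeR adjusted p = 0.0953), and it was -0.24 without KO line 3. It passed at -0.30 without KO line 3 and WT line 19 together (edgeR adjusted p = 0.0352).

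Cdkn1b, which encodes the p27 protein (ENSMUSG00000003031.14, chromosome 6, 134920401 to 134925513), depended on the library labelled KO line 3. It was at 118.3, 64.5 and 67.4 CPM in KO lines 3, 13 and 16, against 77.1, 92.5 and 89.3 CPM in WT lines 3, 8 and 19. The library labelled KO line 3 lay above all WT libraries, while the other libraries labelled KO lay below all of them. Over all 6 libraries the log2 fold change was -0.05 (SE 0.22, edgeR adjusted p = 0.873), and without KO line 3 Cdkn1b fell by 0.38 on the log2 scale (SE 0.11, edgeR adjusted p = 0.00835). Fmr1 itself also had KO line 3 above WT and KO lines 13 and 16 below it, though its order within WT differed. Other genes, such as Bmi1, Suz12 and E2f5, had KO line 3 above WT and KO lines 13 and 16 below it too. Within lines of the same Xist state, the mean log2 CPM of Cdkn1b differed by 0.49 among Xist-high lines (KO line 3 against WT lines 3 and 8) and by -0.44 among Xist-low lines (KO lines 13 and 16 against WT line 19), so the first value rests on KO line 3 and the second on 1 WT line. Among the libraries labelled KO, Xist state and KO line 3 cannot be told apart. In WT, Cdkn1b was at 77.1 and 92.5 CPM in the Xist-high lines and at 89.3 CPM in the Xist-low line. The part of Xist state in the Cdkn1b level was not tested.

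Of the INK4 inhibitors, Cdkn2a encodes both INK4A, an inhibitor of CDK4 and CDK6, and ARF, which stabilises p53 (ENSMUSG00000044303.6, chromosome 4, 89274471 to 89294653). Counts per symbol do not tell these products apart, and the upstream promoter printed above is that of ARF. Cdkn2a held 127, 166 and 281 counts in KO lines 3, 13 and 16, against 102, 77 and 81 counts in WT lines 3, 8 and 19, which is 6.79, 7.02 and 12.1 CPM in the KO lines, against 3.73, 3.9 and 4.39 CPM in the WT lines. All libraries labelled KO lay above WT, and KO line 16 stood highest. Cdkn2a rose 2.16-fold (log2 fold change 1.11, SE 0.24, edgeR adjusted p = 0.00639), and its log2 fold change without KO line 3 was 1.26 (edgeR adjusted p = 0.000515).

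Cdkn2c, which encodes INK4C (ENSMUSG00000028551.14, chromosome 4, 109660876 to 109667189), was at 31.1, 23.3 and 26.3 CPM in KO lines 3, 13 and 16, against 26.7, 29.8 and 26.6 CPM in WT lines 3, 8 and 19. The groups overlapped, and the log2 fold change was -0.04 (SE 0.13, edgeR adjusted p = 0.815), or -0.16 without KO line 3 (edgeR adjusted p = 0.289). Its paralogs Cdkn2b and Cdkn2d, which encode INK4B and INK4D, had log2 fold changes of 0.10 and 0.11 and did not pass either (edgeR adjusted p = 0.738 and 0.658). Cdkn2a was thus the only one of the 4 INK4 genes called by this test, though no test compared it with the others. Among all 10 genes, the directions of Ccnd1, Ccnd2, Ccnd3, Ccne1, Cdk4, Cdk6, Cdkn1a and Cdkn2a were the same within Xist-high lines (1 KO, 2 WT) and within Xist-low lines (2 KO, 1 WT), with differences in mean log2 CPM of 0.54 and 0.81 for Cdk4, 1.98 and 1.07 for Cdk6, 0.82 and 1.05 for Cdkn2a and -0.50 and -0.26 for Ccnd1.

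**Figure D2:**
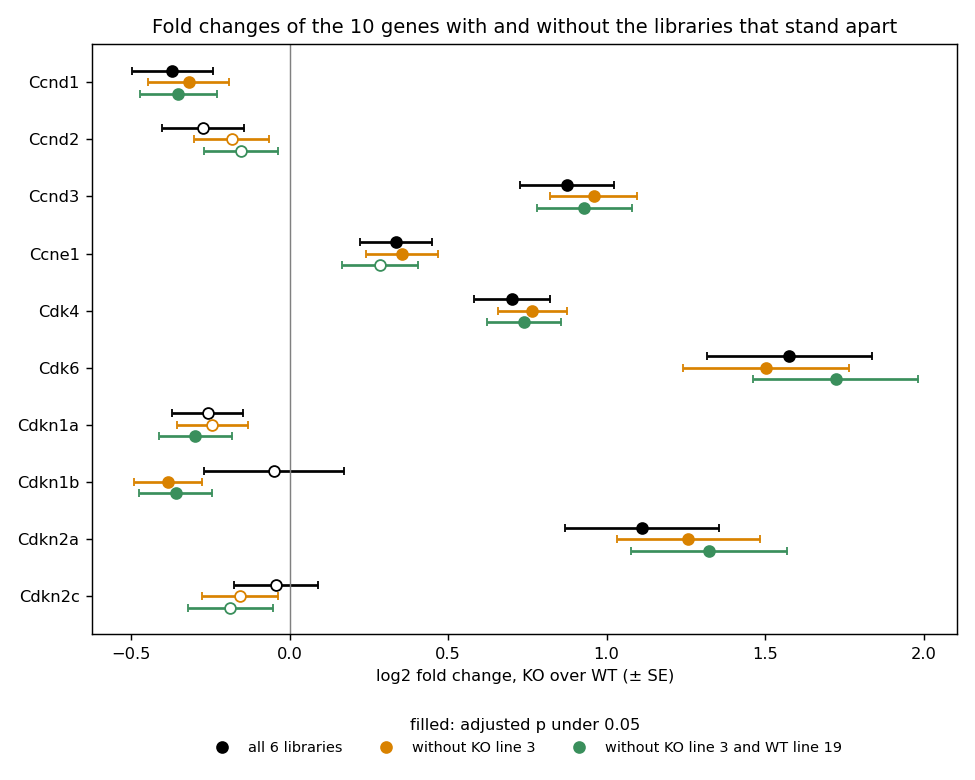
Log2 fold change of each G1 gene, KO over WT, with SE (horizontal axis), over all 6 libraries, without KO line 3, and without KO line 3 and WT line 19. Filled points passed edgeR's test; Cdkn1b is near 0 over all libraries and at -0.38 without KO line 3, while Cdk6, Cdkn2a, Ccnd3 and Cdk4 lie above 0.5 in all 3 fits.

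Per kilobase of exon, Ccnd1 was the most abundant of the 10 genes, at 344.3 ± 27 CPM per kb in the libraries labelled KO, against 445 ± 33.3 CPM per kb in WT (SD, n = 3 each). Ccnd2 followed at 130.5 ± 15.7 CPM per kb in the libraries labelled KO, against 157.7 ± 8.74 CPM per kb in WT, and Cdk6 came last at 0.463 ± 0.0489 CPM per kb in the libraries labelled KO, against 0.155 ± 0.0563 CPM per kb in WT (SD, n = 3 each). Cdk4 and Cdkn1a were apart in the libraries labelled KO (87.1 to 110.8 and 42.7 to 50.8 CPM per kb), whereas in WT they overlapped (56.6 to 59.9 and 51.4 to 61.1 CPM per kb). In the libraries labelled KO, Cdkn1b and Ccne1 overlapped, as did Cdkn2c and Cdkn2a, whereas in WT each of these pairs was apart. KO line 16 alone gave the overlap of Cdkn2a with Cdkn2c. Cdkn2a was at 5.79, 5.99 and 10.3 CPM per kb in KO lines 3, 13 and 16, against 11.6, 8.69 and 9.78 for Cdkn2c. The overlap of Cdkn1b with Ccne1 came from KO line 3, where Cdkn1b was at 26 CPM per kb. In KO lines 13 and 16 Cdkn1b (14.2 and 14.8 CPM per kb) lay below Ccne1 (17.1 and 20.02 CPM per kb), and in WT it lay above. Since the annotated exons include UTRs and rare isoforms, levels per length depend on the annotation.

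Ratios within a library set partners against each other. The ratio of Ccnd1 to Cdk4 per kilobase was 3.69, 3.82 and 3.37 in KO lines 3, 13 and 16, against 7.12, 8.08 and 7.53 in WT lines 3, 8 and 19. The ratio of Cdk4 to Cdk6 was 170.1, 191.2 and 267.6 in KO lines 3, 13 and 16, against 362.5, 635.7 and 275.4 in WT lines 3, 8 and 19, so that KO line 16 came close to WT line 19. The ratio of Cdkn2c to Cdkn2a was 2, 1.45 and 0.95 in KO lines 3, 13 and 16, against 3.13, 3.34 and 2.64 in WT lines 3, 8 and 19. The ratio of Cdkn1a to Cdkn1b overlapped between the groups, at 2.73 ± 0.873 in the libraries labelled KO and 2.94 ± 0.291 in WT (SD, n = 3 each). These ratios are descriptions without a test.

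**Figure D3:**
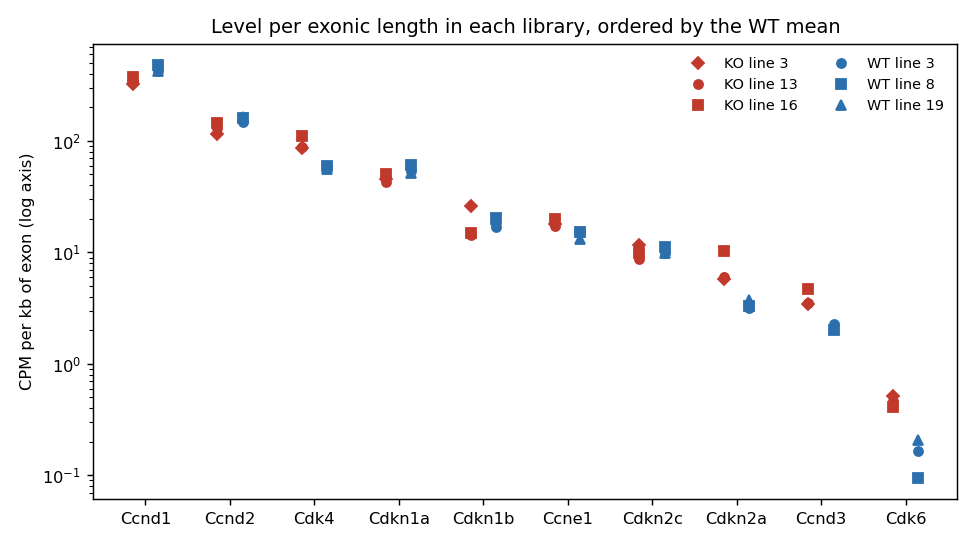
CPM per kilobase of annotated exon (vertical log axis) of the 10 G1 genes in each library, ordered by the WT mean, with libraries labelled KO left of WT. Ccnd1 and Ccnd2 lie highest and Cdk6 lowest in both groups.

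By likeness of centred log2 CPM over the 6 libraries, the closest pairs among the 10 genes were Ccnd1 with Cdkn1a (root-mean-square difference 0.08), Ccnd1 with Ccnd2 (0.09) and Ccnd3 with Cdk4 (0.11). The same measure was taken against the tested genes for the 2 called genes with the largest fold change. Symbols of predicted or unnamed genes (Gm followed by digits, or ending in Rik) were left out of this search. The genes nearest to Cdk6 were BC051142, Oprl1 and Rims1 (differences of 0.16, 0.18 and 0.19), and those nearest to Cdkn2a were Krt28, Fscn1 and Arhgdia (0.09, 0.12 and 0.12). BC051142, Oprl1, Rims1 and Krt28 were near the floor, with WT means of 0.17, 0.25, 0.69 and 0.46 CPM. Their likeness thus rests on few counts. Fscn1 and Arhgdia averaged 122.5 and 176.4 CPM in WT. This measure depends on the size of the difference between the groups as well as on the spread within them.

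The rest of the G1 pathway was read from a list of 40 further genes, all of which were tested. Of its 10 E2F and DP factors, 7 rose and 0 fell (70% called, beside 42.3% of all tested genes). In each of the other roles of the list the called share was lower, from 20% (MuvB or DREAM subunits) to 33.3%. Over the whole list 15 rose, 1 fell and 24 did not pass, a called share of 40% beside 42.3% of all tested genes, and the median log2 fold change was 0.30. Leaving out KO line 3 gave 17 that rose and 6 that fell, beside 53.7% of all tested genes called, and leaving out WT line 3 gave 9 and 1, beside 30.4%.

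Tfdp1, which encodes the DNA-binding partner of the E2Fs, was at 241.9, 236.9 and 232.3 CPM in KO lines 3, 13 and 16, against 158.3, 133.4 and 149.9 CPM in WT lines 3, 8 and 19 (log2 fold change 0.69, SE 0.10, edgeR adjusted p = 0.000993). The activator E2f1 averaged 78.2 ± 9.25 CPM in the libraries labelled KO, against 51.8 ± 5.29 CPM in WT (SD, n = 3 each), a log2 fold change of 0.59. The atypical repressors E2f7 and E2f8, themselves E2F targets, rose by log2 fold changes of 0.80 and 0.62. Cdc25a, the phosphatase that removes inhibitory phosphates from CDK2, averaged 108.5 ± 1.38 CPM in the libraries labelled KO, against 71.7 ± 2.78 CPM in WT (SD, n = 3 each), a log2 fold change of 0.60. Without KO line 3 the log2 fold changes were 0.68 for Tfdp1, 0.69 for E2f1, 0.68 for E2f7, 0.52 for E2f8 and 0.60 for Cdc25a.

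Cdkn1c, another CIP/KIP inhibitor and an imprinted gene, had the largest change in the list. It was at 3.15, 1.56 and 2.62 CPM in KO lines 3, 13 and 16, against 0.366, 0.304 and 0.163 CPM in WT lines 3, 8 and 19 (log2 fold change 3.06, SE 0.40, edgeR adjusted p = 0.000474), a low level in both groups. The one gene of the list that fell was Rb1, named after its value was seen, which encodes the RB protein. Rb1 was at 87.8, 53.8 and 47.4 CPM in KO lines 3, 13 and 16, against 103.5, 113.7 and 118.4 CPM in WT lines 3, 8 and 19, with KO line 3 nearest to WT (log2 fold change -0.83, SE 0.21, edgeR adjusted p = 0.0125). The change was -1.14 without KO line 3 (edgeR adjusted p = 2.36e-06). The RB relatives Rbl1 and Rbl2 did not pass, at 97.4 ± 31.3 CPM in the libraries labelled KO, against 72.7 ± 7.35 CPM in WT for Rbl1, and at 36.5 ± 3.94 CPM in the libraries labelled KO, against 34.5 ± 1.62 CPM in WT for Rbl2 (SD, n = 3 each).

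A list of 16 E2F targets that act at the entry to S phase was also read: 14 rose, 0 fell and 2 did not pass (87.5% called, beside 42.3% of all tested genes), with a median log2 fold change of 0.63 against 0.01 over all tested genes. Cdt1, which loads the replicative helicase, had a log2 fold change of 1.12 (SE 0.12), Tk1, which phosphorylates thymidine, 0.98 (SE 0.10), and Rrm2, a subunit of ribonucleotide reductase, 0.90 (SE 0.12). The helicase subunits Mcm7 and Mcm6 rose by 0.87 and 0.64, and Tyms, which makes thymidylate, by 0.77. The 16 genes together summed to 2395 to 2617 CPM in the libraries labelled KO, against 1480 to 1796 CPM in WT. The count was again 14 higher and 0 lower without KO line 3, and it was 10 and 0 without WT line 3, where 30.4% of all tested genes were called. Of 7 proliferation markers, 3 rose (Mki67, Cdk1 and Plk1) and 0 fell, a called share of 42.9% beside 42.3% of all tested genes, while Top2a, Bub1, Aurka and Ccnb1 did not pass. Mki67, which marks cycling cells, was at 4313, 4046 and 3697 CPM in KO lines 3, 13 and 16, against 2390, 2264 and 2257 CPM in WT lines 3, 8 and 19. The part of the share of cycling cells in the levels of the G1 genes was not tested.

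**Figure D4:**
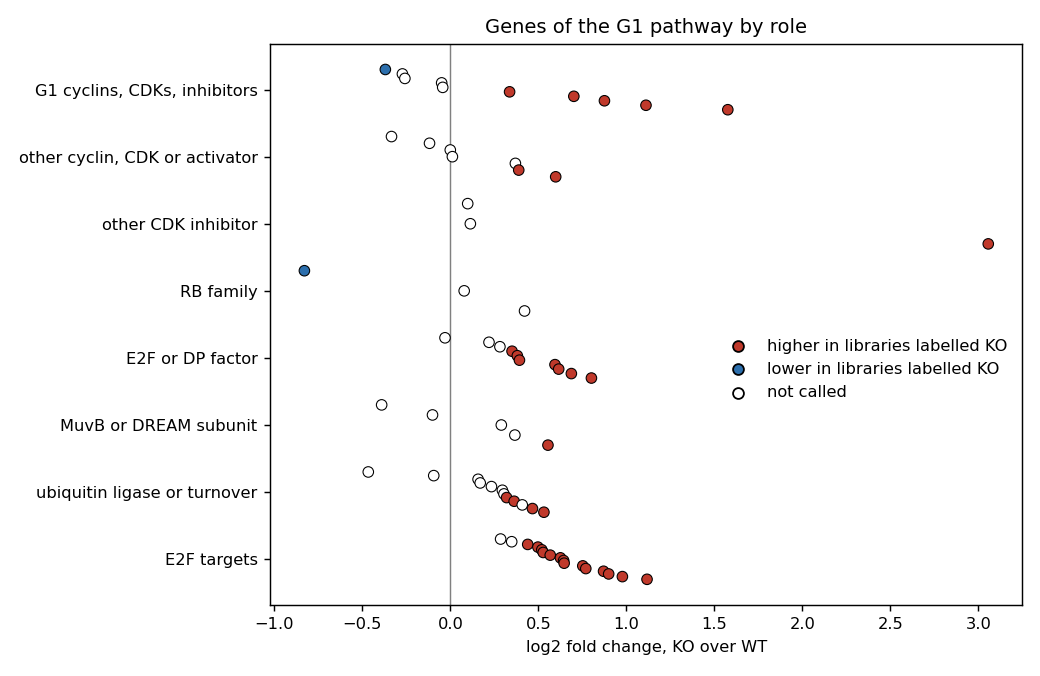
Log2 fold change, KO over WT (horizontal axis), of the 10 G1 cyclins, CDKs and inhibitors, the 40 other G1 genes by role and 16 E2F targets; each point is a gene, coloured where edgeR's test called it. Of the E2F targets 14 were called, all higher, while Rb1 at -0.83 and Ccnd1 at -0.37 are the 2 called lower.

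Known regulators of the 10 genes were read from a list of 20, of which 7 rose, 2 fell and 11 did not pass (45% called, beside 42.3% of all tested genes). Hmga2, a chromatin protein that lowers Cdkn2a in mouse neural stem cells, was at 90, 100.4 and 102.2 CPM in KO lines 3, 13 and 16, against 345.6, 335.7 and 428.3 CPM in WT lines 3, 8 and 19 (log2 fold change -1.92, SE 0.13, edgeR adjusted p = 2.36e-05). Of 8 Polycomb genes, whose products repress the Cdkn2a locus, 2 rose, Cbx7 and Ring1 (Ring1 was named after its value was seen), with log2 fold changes of 0.79 and 0.46, and 0 fell. Bmi1, the Polycomb subunit best known for holding Cdkn2a down in neural stem cells, was at 166.3, 84.9 and 77.2 CPM in KO lines 3, 13 and 16, against 138.8, 148.2 and 119.4 CPM in WT lines 3, 8 and 19, with KO line 3 above WT and the other libraries labelled KO below it, and did not pass (edgeR adjusted p = 0.374).

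The Hedgehog factors Gli1 and Gli2, which act upstream of Ccnd1 and Ccnd2 in neural precursors, both rose, with log2 fold changes of 2.23 for Gli1 (SE 0.26) and 1.27 for Gli2 (SE 0.19). So did Tcf7l2, a nuclear factor of the Wnt pathway, at 0.89 (SE 0.11). Without KO line 3 these values were 2.19, 1.45 and 0.81, with -1.86 for Hmga2, 1.10 for Myc and 0.87 for Cbx7. Ccnd1 was lower and Ccnd2 was not called in the same comparison. Whether these factors act on Ccnd1 or Ccnd2 in these cells was not tested. For the p53 axis upstream of Cdkn1a, Trp53 rose by 0.37 (SE 0.11, edgeR adjusted p = 0.0235) and Mdm2, a p53 target that encodes its ubiquitin ligase, fell with -0.46 (SE 0.11, edgeR adjusted p = 0.00811), both named after their values were seen. Without KO line 3 and WT line 19 together, 8 of the 20 regulators rose and 6 fell, and the called share of all tested genes was 54.2%, above that with all libraries.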

How the data were processed

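Raw counts per gene symbol, with no normalization, are what the authors deposited, in 1 file per sample. The submitters' processing notes list cutadapt 1.14, STAR, HTSeq 0.7.2, DESeq2 and mm10. No source used here names the annotation or the strand setting, so reads of overlapping genes on opposite strands cannot be told apart. The test was edgeR 4.0.16 under R 4.3.3: low counts filtered by filterByExpr, TMM scaling, a quasi-likelihood fit over all 6 samples, two-sided p-values with Benjamini-Hochberg adjustment over the 13925 genes tested, threshold 0.05. One count was worth 0.0366 to 0.0542 CPM, which limits Cdk6 and Cdkn2a most. Samples of a group differed by more than sampling noise (chi-square per degree of freedom from 10.8 to 91.5). Positions and exonic lengths came from GENCODE M21 (GRCm38). The members, lists and tests were chosen with earlier results of these data known. The genes named were the 10 members, Fmr1 and Xist, up to 6 called genes of each list by smallest p, the 2 nearest tested genes on each side of called members, and the 3 nearest profiles of the 2 called members of largest change; any other gene was named after its value was seen. Alternatives were other size factors and filters, limma 3.58.1 (voom), DESeq2 1.42.0, a threshold of 0.10, an Xist covariate, and left-out samples.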

Additional observations from a re-analysis of the deposited data

How the results depend on the processing

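Ccnd3, Cdk4, Cdk6 and Cdkn2a kept their direction and their call in all 17 alternatives, with log2 fold changes of 0.72 to 0.96, 0.59 to 0.77, 1.33 to 1.81 and 0.80 to 1.32. Calls of Ccnd1, Ccnd2, Ccne1, Cdkn1a and Cdkn1b depended on the processing, and the causes were not tested. Cdkn2c was called in none of the alternatives, and only its sign changed. Ccnd1 lost its call with DESeq2 size factors (-0.3747), upper-quartile factors (-0.375), no filter (-0.3636) and a filter of 1 CPM in 3 libraries (-0.3584), and ranged from -0.423 to -0.3087 with 1 library left out. Ccne1 lost its call with library size alone (0.3204) and without KO line 3 and WT line 19 together (0.2856), and ranged from 0.2684 to 0.3893 with 1 library left out. Ccnd2 gained a call with Xist state as a covariate (-0.3397). Cdkn1a gained one with voom sample weights (-0.2976), a threshold of 0.10 (-0.2593) and without both libraries (-0.2985). Cdkn1b turned to 0.02507 with the Xist covariate, ranged from -0.3835 to 0.1077 with 1 library left out, and was called without both libraries (-0.3604). Cdkn2c turned to 0.02099 with the covariate and ranged from -0.1559 to 0.052 with 1 library left out. The other G1 genes called numbered 10 to 23 with 1 library left out, and 14 regulators were called without both libraries. With the longest transcript as length, Ccnd1, Ccnd2 and Ccnd3 held 68.18%, 30.43% and 1.385% of the D-type cyclin level in the libraries labelled KO, against 70.04%, 29.35% and 0.6064% in WT. Other size factors moved the median of all genes by at most -0.016 on the log2 scale. No paired analysis was possible because KO and WT share only line number 3, and the numbers name independent lines.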

Other observations

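Of 22 tested genes next to the called G1 genes on the chromosome, 7 were called in the same direction as the G1 gene beside them, 2 in the other direction and 13 were not called, a called share of 40.9% beside 42.3% of all tested genes. Beside Cdk4, Agap2, which encodes a GTPase regulator, averaged 204.5 ± 26.3 CPM in the libraries labelled KO, against 35.2 ± 5.34 CPM in WT (SD, n = 3 each; log2 fold change 2.54, edgeR adjusted p = 1.85e-05), while Tspan31, March9 and Cyp27b1 did not pass. Beside Ccnd1, Ano1, which encodes a chloride channel, had a log2 fold change of -2.76 and 1810010D01Rik one of -2.12, while Oraov1 and Tpcn2 did not pass. Around Cdkn2a, Mtap (0.58) and Dmrta1 (1.49) rose, Klhl9 fell (-0.71) and Cdkn2b, the closest INK4 gene, was not called (0.10). Around Ccne1, Zfp536 rose (2.20) and 1600014C10Rik fell (-1.18). These are log2 fold changes, KO over WT.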
